A study of Mus musculus with 2 samples.

Results

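The genes described here encode 38 subunits of the chromatin complexes that partner with Ikaros, the DNA-binding zinc finger protein that Ikzf1 encodes in lymphocytes and their precursors. They were taken by symbol, through Entrez Gene numbers, from a table of 27179 genes, and all 38 were found in it. The list holds 14 genes of the nucleosome remodelling and deacetylase complex (NuRD), 3 of Sin3, 2 of CtBP, 18 of SWI/SNF and Smarca5, which encodes an ATPase of the ISWI class and is given apart. Their transcripts were counted by RNA sequencing of ALL65, a T-lineage leukaemia that arose in a mouse with the alleles Vav-tTA and TRE-GFP-shIkaros, taken from the spleens of recipient mice. The Dox group is GFPmid cells sorted from mice that received doxycycline for 3 days, which shuts off the hairpin against Ikaros and restores the endogenous protein. The untreated group is GFPhigh cells from mice without doxycycline, in which the hairpin stays on. Both groups carry both alleles and derive from the same single leukaemia, and the Vav promoter drives tTA in blood-forming cells. The design names 3 mice per group, but the table holds 1 column per group, so no difference has a replicate check and no test was run. Treatment and sort gate differ together and cannot be told apart. The sources used here do not state the sex, age or strain of the recipients.

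NuRD joins a CHD-family motor that moves nucleosomes to histone deacetylases in a single complex, and it is the main partner with which Ikaros has been purified from lymphoid cells. Sin3 is a second scaffold for the same deacetylases, and CtBP is a corepressor that binds a short peptide motif in Ikaros. SWI/SNF, also called BAF, is an ATP-driven remodeller that opens chromatin, and its subunits assemble into canonical BAF, PBAF and non-canonical BAF. Whether the genes for these partners differ in transcript level when Ikaros returns bears on the composition of the machinery that Ikaros meets, although transcript levels do not measure complexes.

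The libraries held 14457475 counts with Dox and 7477988 counts without, and levels are given as CPM, the usual unit of counts scaled to library size, after TMM scaling, which sets the libraries level over the bulk of their genes. Ikzf1, the target of the hairpin, stood at 1455 CPM with Dox and 262 CPM without, with a log2 ratio of 2.47, whose exact 95% interval for counting error ran from 2.41 to 2.54. All 8 markers of the T lineage were present, from 244 to 3682 CPM with Dox and from 251 to 3201 CPM without. Of the markers of other cell types, all 5 B cell genes were under 1 CPM in both libraries, with Ms4a1 and Pax5 at 0 counts. Ncr1, Klrd1 and Klrk1 of the 5 NK genes, S100a8 and Mpo of the 6 myeloid genes, and Col3a1, Cdh5 and Kdr of the 5 stromal and endothelial genes were also at 0 in both. The summed levels of the other lists were 17.4 CPM with Dox and 16.6 CPM without for myeloid genes (Itgam 14.7 CPM with Dox and 8.42 without, Lyz2 1.69 CPM with Dox and 7.24 without), 3.09 CPM with Dox and 1.579 CPM without for NK genes, 4.71 CPM with Dox and 3.55 CPM without for erythroid genes, and 12.4 CPM with Dox and 37.2 CPM without for stromal genes, of which Pdgfrb made up 10.5 CPM with Dox and 35.3 CPM without. Their part in the results was not tested. In a bulk library, fewer cells of a type and less RNA per cell cannot be told apart.

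While Ikzf1 differed several-fold, the transcripts of its partners stood at nearly the same level in both libraries. Of the 38 genes, 35 reached 5 CPM in the higher library, and Chd5, Ctbp2 and Smarcd3 did not. Among the 35, 0 were 1.5-fold or more higher with Dox, against 6.28% of the 10113 genes past that minimum, and 0 were 1.5-fold or more lower, against 6.18%. At 2-fold the numbers were again 0 and 0, against 2.21% of all genes for higher and 2.24% for lower. For 35 genes, 0 is near these 2-fold shares. Log2 ratios of Dox over untreated ran from -0.25 for Smarcd2 to 0.45 for Chd3. Their median was 0.03, beside 0.01 over all genes, and the median size regardless of sign was 0.10, beside 0.19.

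Most of these genes are abundant, and abundant genes differed less between the libraries. Of the 4937 genes with a mean of at least 50 CPM, a limit chosen after the data were seen, 4.6% passed 1.5-fold upwards with Dox and 2.49% downwards, and the median size of the ratio was 0.16. The 34 subunit genes past that limit had a median size of 0.10 (0.097 before rounding), with 0 past 1.5-fold in either direction. In a list this short, 0 is near the shares of 4.6% and 2.49%.

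**Figure D1:**
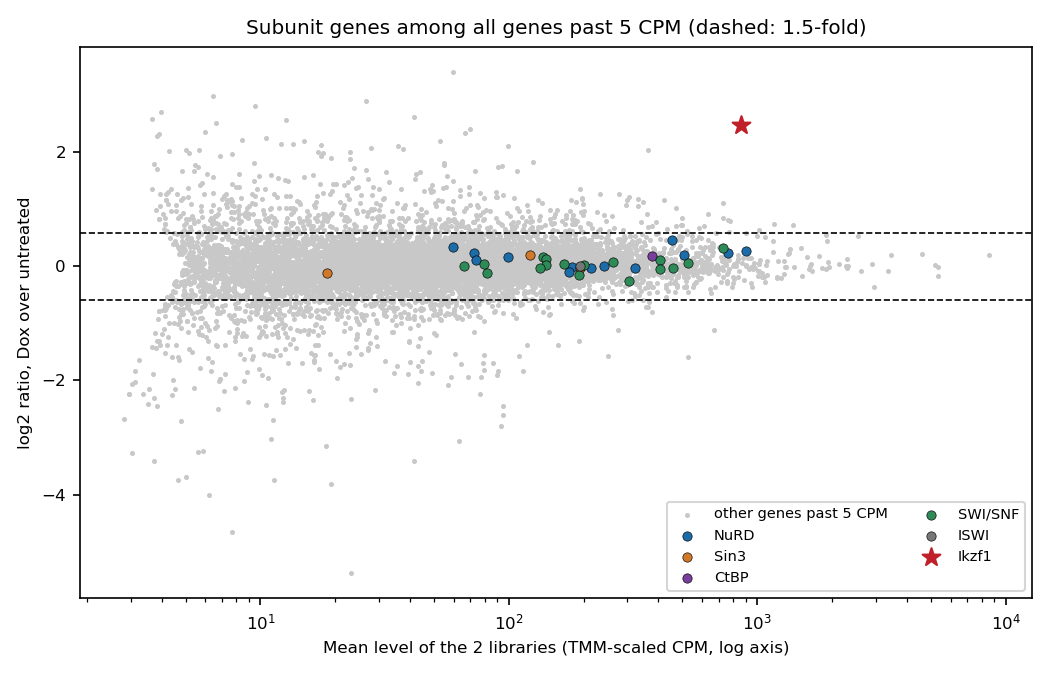
Log2 ratio of Dox over untreated (vertical axis) against the mean level of the 2 libraries in TMM-scaled CPM (horizontal log axis) for genes that reached 5 CPM in either library, 1 library per group. The 35 subunit genes, coloured by complex, lie between the dashed lines at 1.5-fold, while Ikzf1 stands at 2.47.

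Small differences remained that exceeded counting error. Each ratio below is followed in brackets by its exact 95% interval (Clopper-Pearson), which covers the sampling of counts only and holds no spread between mice. Such intervals narrow as counts rise, and the median level was 194 CPM for the 35 genes and 48.4 CPM over all genes. The shares of all genes set beside interval counts are not matched for level. The interval lay wholly above 0 for 13 of 35 genes and wholly below 0 for 2, against 26.9% and 23.8% of all genes. Those above 0 were Chd3, Chd4, Mta2, Mta3, Mbd2, Rbbp4, Gatad2b, Sin3b, Ctbp1, Smarcd1, Arid1a, Arid1b and Pbrm1, and those below 0 were Smarcd2 and Brd7. This split depended on how the libraries were scaled: with total counts, which lower the median of all genes by a log2 difference of 0.05, it was 9 above and 7 below, against 22.1% and 28.6% of all genes. Under total counts the intervals of Mbd2, Smarcd1, Arid1b and Pbrm1 held 0, and those of Mbd3, Rbbp7, Smarca2, Smarca4 and Arid2 lay below 0 beside Smarcd2 and Brd7. The sign of the ratio was the same under TMM, DESeq2 size factors, total counts and removal of the trend with gene length for 28 of the 35, with 16 above 0 and 12 below. It differed among these scalings for Hdac2, Smarce1, Brd9, Dpf2, Actl6a, Ss18 and Smarca5. The scalings are not separate checks. Against TMM, DESeq2 size factors and total counts moved the median of all genes by -0.004 and -0.05, and the length trend moved a member by at most 0.015. Any ratio larger in size than these shifts was bound to keep its sign.

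**Figure D2:**
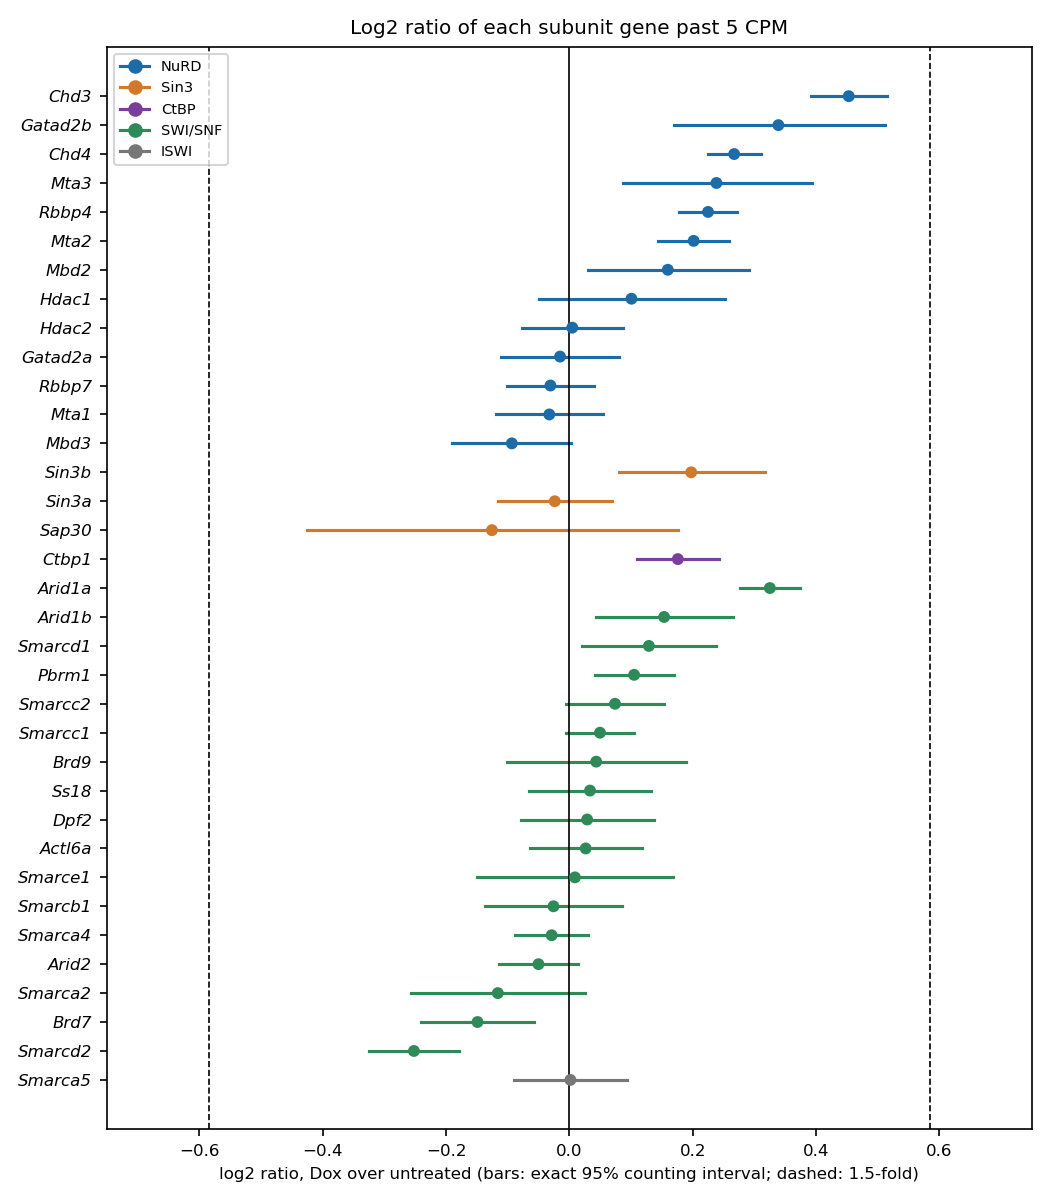
Log2 ratio of Dox over untreated for the 35 subunit genes past 5 CPM, with points for the ratio and bars for the exact 95% counting interval, grouped by complex. Chd3 at 0.45 is farthest to the right and Smarcd2 at -0.25 farthest to the left, and 0 genes reach the dashed lines at 1.5-fold.

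Promoter sequences are shown for Chd4, Gatad2b and Arid1a, the genes with the highest ratios among those with a promoter in the RefSeq table, for Smarcd2, the gene with the lowest ratio, and for Actl6a, whose ratio is near 0. RefSeq (GRCm38.p6) gave a promoter for 31 of the 38 genes. Each line gives the 250 bases before the most upstream start in that table, which for Smarcd2 lies inside the annotated span of the gene, 5′ to 3′ on the gene's strand, with matches to GGGAA or its reverse complement TTCCC, the core that Ikaros zinc fingers recognise, in capitals.
Chd4, chr6:125095731-125095980, plus strand: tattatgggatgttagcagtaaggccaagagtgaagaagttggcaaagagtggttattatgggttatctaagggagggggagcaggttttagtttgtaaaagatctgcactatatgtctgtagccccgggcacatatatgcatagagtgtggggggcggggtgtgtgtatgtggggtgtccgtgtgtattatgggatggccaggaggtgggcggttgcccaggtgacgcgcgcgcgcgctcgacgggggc
Gatad2b, chr3:90292931-90293180, plus strand: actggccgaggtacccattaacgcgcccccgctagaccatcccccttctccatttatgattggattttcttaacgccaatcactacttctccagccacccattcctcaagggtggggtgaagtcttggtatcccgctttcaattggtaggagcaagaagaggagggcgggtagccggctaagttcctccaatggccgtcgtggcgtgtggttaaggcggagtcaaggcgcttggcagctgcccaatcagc
Arid1a, chr4:133756770-133757019, minus strand: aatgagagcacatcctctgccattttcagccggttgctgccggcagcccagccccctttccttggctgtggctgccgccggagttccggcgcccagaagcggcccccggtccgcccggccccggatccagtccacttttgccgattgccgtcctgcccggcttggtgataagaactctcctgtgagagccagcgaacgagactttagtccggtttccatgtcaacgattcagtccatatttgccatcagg
Smarcd2, chr11:106267633-106267882, minus strand: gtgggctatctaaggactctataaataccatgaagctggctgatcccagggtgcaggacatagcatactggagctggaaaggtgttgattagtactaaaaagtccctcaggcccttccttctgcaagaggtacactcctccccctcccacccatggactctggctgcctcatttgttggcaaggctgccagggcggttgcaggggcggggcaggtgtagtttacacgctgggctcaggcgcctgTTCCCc
Actl6a, chr3:32708296-32708545, plus strand: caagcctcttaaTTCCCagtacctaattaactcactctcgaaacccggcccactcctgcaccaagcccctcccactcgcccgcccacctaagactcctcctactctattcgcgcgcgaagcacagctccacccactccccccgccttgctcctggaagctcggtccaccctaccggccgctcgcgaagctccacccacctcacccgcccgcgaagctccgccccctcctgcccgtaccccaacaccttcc
No match to these letters stood in the windows of Chd4, Gatad2b and Arid1a, and 1 stood in each of those of Smarcd2 and Actl6a. Among windows not shown, those of Sin3b, Ctbp1 and Smarcd1, with intervals above 0, each held 1 match. Those of Mta2, Rbbp4, Arid1b and Pbrm1, also with intervals above 0, held none, and that of Brd7, with an interval below 0, held 2. Whether matches go with the ratios was not tested. Over the 31 genes, 14 windows (45.2%) held GGGAA on either strand, against 56.0% of 27025 genes in the table and 58.4% of the 7939 that passed 5 CPM here. The longer form TGGGAA, which contains GGGAA, was found in 2 windows (6.45%), those of Actl6a and Ctbp2, against 21.5% of all genes in the table and 20.03% of those past 5 CPM. A match is a description of letters in this window and not a measured binding site.

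Both NuRD motor genes stood higher with Dox. Chd3 and Chd4 encode the ATPases of lymphoid NuRD, CHD4 being also known as Mi-2 beta. Chd3 (Entrez Gene 216848, chromosome 11 from 69343273 to 69369499 in mm10) had 523 CPM with Dox and 382 CPM without, from 7444 counts with Dox and 2905 counts without. Its log2 ratio of 0.45 (0.39 to 0.52) equals a 1.37-fold level, and 9.5% of all genes past the minimum had a ratio at least as high. Chd4 (Entrez Gene 107932, chromosome 6 from 125095980 to 125130591) was the most abundant of these genes by CPM, at 984 CPM with Dox and 817 CPM without. Its ratio was 0.27 (0.22 to 0.31), and 0.22 with total counts. Both ratios were above 0 under each of the scalings named above and under 1.5-fold in each. Chd5, the neuronal relative of these motors, had 1 count with Dox and 6 counts without, a log2 ratio of -1.94 (-9.01 to -0.45) that was not counted because of its low level.

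The MTA proteins are the scaffold on which the deacetylases sit. Mta2, the most abundant of them, had 541 CPM with Dox and 471 CPM without, with a ratio of 0.20 (0.14 to 0.26). Mta3 stood at 78.7 CPM with Dox and 66.7 CPM without, at 0.24 (0.09 to 0.39). Mta1 did not share this direction, at 212 CPM with Dox and 217 CPM without and a ratio of -0.03 (-0.12 to 0.05).

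The methyl-CpG-binding domain proteins MBD2 and MBD3 occupy the same place in NuRD and exclude each other from a given complex. Mbd2, whose product binds methylated DNA, had 105 CPM with Dox and 93.8 CPM without, at 0.16 (0.03 to 0.29). Mbd3 had 169 CPM with Dox and 180.0 CPM without, at -0.09 (-0.19 to 0.003). The GATAD2 proteins connect these proteins to the CHD motor. Gatad2b (Entrez Gene 229542, chromosome 3 from 90293181 to 90363405) had 66.8 CPM with Dox and 52.8 CPM without, and its ratio of 0.34 (0.17 to 0.51), a 1.26-fold level, was second to that of Chd3. Gatad2a had 178 CPM with Dox and 180 CPM without, at -0.02 (-0.11 to 0.08).

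The deacetylases and the histone chaperones are shared between NuRD and Sin3, and the deacetylase genes differed by less than counting error. Hdac2, the more abundant deacetylase gene, had 243 CPM with Dox and 242 CPM without, at 0.005 (-0.08 to 0.09). Hdac1 had 76.5 CPM with Dox and 71.3 CPM without, at 0.10 (-0.05 to 0.25). Rbbp4 and Rbbp7 encode closely related proteins that hold histone H4. Rbbp4 stood at 824 CPM with Dox and 705 CPM without, at 0.22 (0.18 to 0.27), whereas Rbbp7 had 319.6 CPM with Dox and 326 CPM without, at -0.03 (-0.10 to 0.04). Hdac1 and Rbbp4 lie close together on chromosome 4, at 129516104 to 129542646 and at 129307100 to 129335370. Some of their transcript sequence is shared with other genes: 35.5% of the 50-base windows of Hdac1 transcripts in GENCODE also occur in transcripts of another gene, 17.2% for Rbbp4 and 11.2% for Rbbp7. The span of Rbbp7 also overlaps that of Txlng, which had 362 counts with Dox and 196 counts without. No source used here states how such reads were counted, so the levels of these genes are uncertain. Taking the 13 measured NuRD genes, the intervals of 7 lay above 0 and those of 0 below, against 26.9% and 23.8% of all genes. With total counts 6 lay above 0 and 2 below, against 22.1% and 28.6% of all genes. These shares are not matched for level. The median ratio was 0.16, against 0.01 over all genes and 0.03 over genes with a mean of at least 50 CPM.

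In the Sin3 complex, the scaffold genes parted. Sin3b had 129 CPM with Dox and 113 CPM without, at 0.20 (0.08 to 0.32), while Sin3a had 192 CPM with Dox and 196 CPM without, at -0.02 (-0.12 to 0.07). Sap30, which encodes a bridging subunit, was the least abundant of the 35, at 17.7 CPM with Dox and 19.3 CPM without and a ratio of -0.13 (-0.43 to 0.18). Counting error spans both directions for Sin3a and Sap30.

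Of the CtBP corepressors, Ctbp1 was abundant, at 400 CPM with Dox and 354 CPM without, at 0.18 (0.11 to 0.24). Ctbp2 (Entrez Gene 13017, chromosome 7 from 132986998 to 133124009) had 0 counts in both libraries, which allows up to 0.211 CPM with Dox and 0.395 CPM without. Of its transcript windows 4.07% occur in another gene, and its RefSeq span overlaps 2 genes, 4932437C15Rik and Gm35364, that have no row in the count table. Whether the counting lost reads of Ctbp2 was not tested.

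The genes of the catalytic SWI/SNF subunits had ratios just under 0. Smarca4, which encodes the ATPase BRG1, had 453 CPM with Dox and 462 CPM without, at -0.03 (-0.09 to 0.03). Smarca2, which encodes the alternative ATPase BRM, had 78.7 CPM with Dox and 85.3 CPM without, at -0.12 (-0.26 to 0.03). Both intervals held 0 under TMM scaling, but with total counts both lay below 0, at -0.08 (-0.14 to -0.02) for Smarca4 and -0.16 (-0.30 to -0.02) for Smarca2. Smarca5, the ISWI motor also called SNF2H, had 194 CPM in each library, at 0.002 (-0.09 to 0.09).

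The SMARCD subunits of the core link the complex to transcription factors. Smarcd2 (Entrez Gene 83796, chromosome 11 from 106263171 to 106272998), a subunit needed for granulocyte development, had 278 CPM with Dox and 331 CPM without. Its ratio of -0.25 (-0.32 to -0.18) was the lowest of the 35, and 18.9% of all genes had a ratio at least as low. Smarcd1 went the other way, at 147 CPM with Dox and 135 CPM without and a ratio of 0.13 (0.02 to 0.24), an interval that held 0 with total counts, at 0.08 (-0.03 to 0.19). Smarcd3, the muscle and neural form, had 39 counts with Dox and 23 counts without, or 2.74 CPM with Dox and 3.03 CPM without, under the minimum, and its span overlaps Chpf2. Of the transcript windows of Smarcd3, 44.0% also occur in Chpf2, which had 264 counts with Dox and 139 counts without. The level of Smarcd3 is uncertain to that extent.

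The other core genes, and Ss18 beside them, had intervals that held 0. Smarcc1, whose product BAF155 forms the base of the complex, had 536 CPM with Dox and 518 CPM without, at 0.05 (-0.01 to 0.11). Its paralogue Smarcc2 had 270.2 CPM with Dox and 257 CPM without, at 0.07 (-0.005 to 0.15). Smarcb1, the tumour suppressor subunit that contacts the nucleosome, had 133 CPM with Dox and 135 CPM without, at -0.03 (-0.14 to 0.09). These 3 genes thus stayed within counting error of no difference. Smarce1, a subunit with a DNA-binding HMG domain, had 65.9 CPM with Dox and 65.5 CPM without, at 0.01 (-0.15 to 0.17). Actl6a, the actin-related subunit, had 201.96 CPM with Dox and 198 CPM without, at 0.03 (-0.06 to 0.12). Ss18, the subunit fused in synovial sarcoma, had 169 CPM with Dox and 165 CPM without, at 0.03 (-0.07 to 0.13).

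The subunits that set the type of SWI/SNF complex were spread on both sides of 0. In canonical BAF, Arid1a, a large subunit often mutated in cancer (Entrez Gene 93760, chromosome 4 from 133679008 to 133756769), had 809.5 CPM with Dox and 646 CPM without. Its ratio of 0.33 (0.28 to 0.37), a 1.25-fold level, was the highest of the SWI/SNF genes. Its alternative Arid1b had 144 CPM with Dox and 129 CPM without, at 0.15 (0.04 to 0.26). Dpf2, the zinc finger subunit of the same complex, had 143 CPM with Dox and 140 CPM without, at 0.03 (-0.08 to 0.14).

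The genes specific to PBAF lay on both sides of 0. Pbrm1, which encodes a subunit with many bromodomains, had 422 CPM with Dox and 392 CPM without, at 0.10 (0.04 to 0.17). Arid2, the PBAF counterpart of the ARID1 proteins, had 398 CPM with Dox and 412 CPM without, at -0.05 (-0.11 to 0.01). Brd7, a bromodomain subunit, had 182 CPM with Dox and 201.6 CPM without, at -0.15 (-0.24 to -0.06). The span of Brd7 overlaps that of Adcy7, which had 2017 counts with Dox and 1334 counts without. That of Pbrm1 overlaps Smim4, which had 184 counts with Dox and 106 counts without. These are overlaps of spans: 0% of the transcript windows of Brd7 and 0.21% of those of Pbrm1 also occur in another gene. How reads in these spans were counted was not tested. Brd9, the bromodomain subunit of non-canonical BAF, had 80.4 CPM with Dox and 78.0 CPM without, at 0.04 (-0.10 to 0.19). Over the 17 measured SWI/SNF genes, the intervals of 4 lay above 0 and of 2 below, against 26.9% and 23.8% of all genes, and the median ratio was 0.03. With total counts the split was 1 above, Arid1a, and 5 below, against 22.1% and 28.6% of all genes. With total counts the number below 0 was thus near the share of all genes, and the number above 0 was under it. Under TMM the number above 0 was near the share, and the number below 0 was under it. These shares are not matched for level. Among these remodeller genes, 28.2% of the transcript windows of Smarca5, 15.01% of those of Smarce1, 10.1% of those of Actl6a and 7.87% of those of Smarcd1 also occur in another gene, and their levels are uncertain to that extent.

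To compare levels between genes, CPM was divided by the gene length in the authors' table, giving CPM per kb. On this scale Rbbp4 was the highest, at 187 CPM per kb with Dox and 160 CPM per kb without. It was followed with Dox by Mta2 at 175, Ctbp1 at 161, Chd4 at 153 and Rbbp7 at 141 CPM per kb. In the untreated library Mta2 stood at 152, Rbbp7 at 144, Ctbp1 at 143 and Chd4 at 127 CPM per kb. Genes listed here under NuRD therefore took 4 of the 5 highest places in each library. Among them, Rbbp4 and Rbbp7 are shared with Sin3, and their levels are uncertain because of shared sequence. Of all 38 genes, 32 were above the median of the genes past 5 CPM, which was 17.5 CPM per kb with Dox and 17.3 CPM per kb without. The others were Chd5, Ctbp2, Smarcd3, Sap30, Smarca2 and Arid1b, the last with 12.7 CPM per kb with Dox and 11.4 CPM per kb without.

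**Figure D3:**
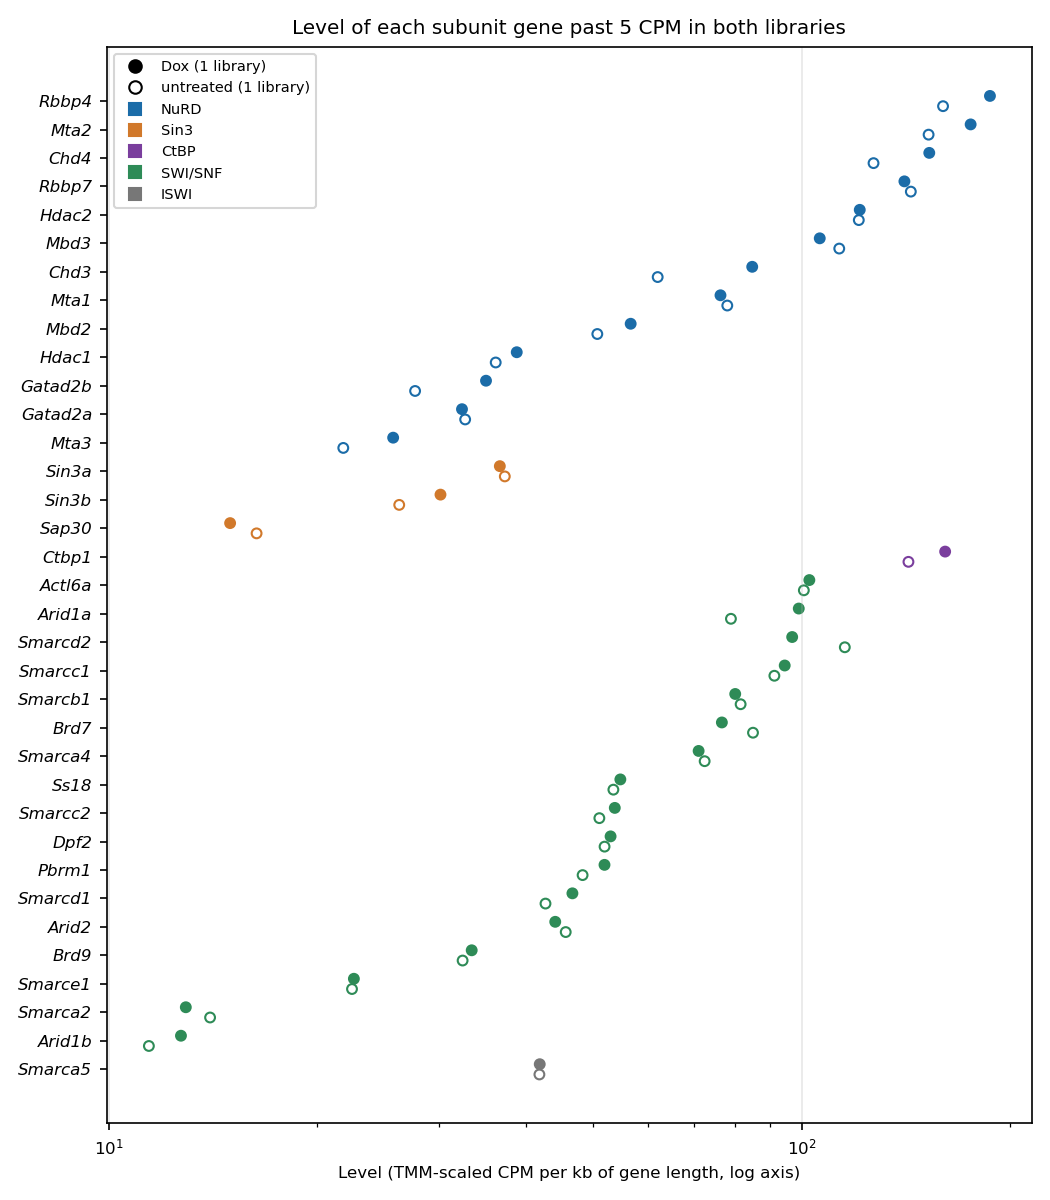
Level of the 35 subunit genes past 5 CPM in TMM-scaled CPM per kb (horizontal log axis), with filled points for the Dox library and open points for the untreated library, grouped by complex and ordered by the Dox level. The open and filled points of a gene lie close together, from Rbbp4 at 187 CPM per kb with Dox and 160 without down to Arid1b at 12.7 CPM per kb with Dox and 11.4 without.

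Many of these genes come as paralogues or alternative subunits, so the balance within pairs was compared directly. Not every pair competes for the same place, since Brd7 belongs to PBAF and Brd9 to non-canonical BAF. The difference between the log2 ratios of 2 genes needs no scaling between libraries. Of 13 pairs, the exact conditional 95% interval lay above 0 for 5, below 0 for 4 and held 0 for 4, and the largest difference was 0.38 in size. No p-value is given for these differences, since they compare a single library with a single library. The share over other pairs of genes was not worked out, so the counts of 5 and 4 have no background. Among single genes, 26.9% of intervals lay above 0 and 23.8% below. Shifts of this kind are therefore not shown to be particular to these pairs.

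Within NuRD, the balance leaned towards Chd3 over Chd4, Mbd2 over Mbd3, Gatad2b over Gatad2a, Mta2 over Mta1 and Rbbp4 over Rbbp7 in the Dox library, compared with the untreated library. Chd3 made up 35.7% (35.1 to 36.4) of the Chd3 and Chd4 level per length with Dox and 32.8% (31.8 to 33.8) without, a log2 difference of 0.19 (0.11 to 0.26). Gatad2b made up 52.0% (50.1 to 53.9) of its pair with Dox and 45.9% (43.0 to 48.6) without, a difference of 0.36 (0.16 to 0.55). These shares rest on the table's lengths of 1906 bases for Gatad2b and 5502 bases for Gatad2a. In counts Gatad2b was the lower in both libraries, with 950 against 2532 for Gatad2a with Dox and 401 against 1367 without. Mbd2 made up 34.8% of its pair with Dox and 30.9% without, a difference of 0.25 (0.09 to 0.42). Mta1 made up 30.3% of the Mta1 and Mta2 level with Dox and 33.9% without, at -0.23 (-0.34 to -0.13). Rbbp7 made up 42.9% with Dox and 47.3% without, at -0.26 (-0.34 to -0.17), beside the shared sequence given above. Hdac1 made up 24.2% of the deacetylase pair with Dox and 23.0% without, at 0.10 (-0.08 to 0.27), and Mta3 made up 12.8% of its pair with Mta2 with Dox and 12.5% without, at 0.04 (-0.13 to 0.20).

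In the other complexes, the largest shift was that of Smarcd2, which made up 67.5% (66.3 to 68.6) of the Smarcd1 and Smarcd2 level with Dox and 73.0% (71.5 to 74.4) without. That is a log2 difference of -0.38 (-0.51 to -0.25). Sin3b made up 45.1% of the Sin3 pair with Dox and 41.3% without, at 0.22 (0.07 to 0.37). Arid1b made up 11.4% with Dox and 12.6% without, at -0.17 (-0.29 to -0.05), so Arid1a dominated in both libraries. Brd9, set against Brd7, made up 30.3% with Dox and 27.6% without, at 0.19 (0.02 to 0.37), beside the overlap of the spans of Brd7 and Adcy7 given above. The ATPase balance did not differ beyond counting error, with Smarca2 at 15.4% with Dox and 16.2% without and a difference of -0.09 (-0.24 to 0.07). The same held for Smarcc2 against Smarcc1, at 36.3% with Dox and 35.9% without and a difference of 0.02 (-0.07 to 0.12).

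**Figure D4:**
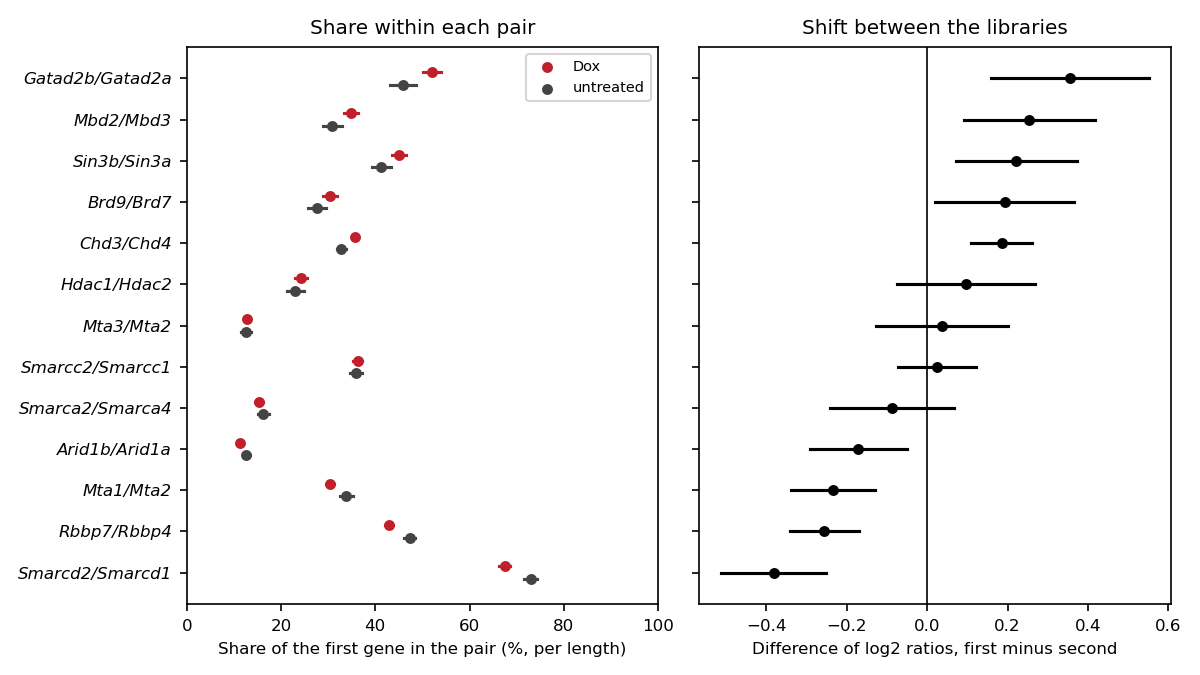
Balance within 13 pairs of paralogues or alternative subunits: on the left the share of the gene named before the slash in the length-scaled level of the pair (percent; upper red points Dox, lower grey points untreated, bars 95% counting intervals), on the right the difference of log2 ratios with its exact 95% interval. Gatad2b/Gatad2a at 0.36 and Smarcd2/Smarcd1 at -0.38 are farthest from 0.

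Other subunits and related remodellers came from lists drawn up from general knowledge, and their counts past 1.5-fold stand against 6.28% of all genes for higher and 6.18% for lower, so that counts of 0 or 1 in lists this short are near that share. Of 14 measured further NuRD and Sin3 subunits, 0 were past 1.5-fold in either direction, and the median ratio was 0.05. The farthest from 0 were Sinhcaf, a Sin3 subunit, at -0.42 (-0.72 to -0.12), Arid4a, a retinoblastoma-binding Sin3 subunit, at 0.38 (0.25 to 0.52), Sap130 at 0.19 (0.06 to 0.32) and Cdk2ap1 at -0.17 (-0.34 to -0.01). Sinhcaf had 15.8 CPM with Dox and 21.2 CPM without, and Arid4a 104 CPM with Dox and 79.5 CPM without.

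Of 9 measured further SWI/SNF subunits, 0 were past 1.5-fold, with a median of 0.03. Bicra, the scaffold of non-canonical BAF, came nearest, at 52.5 CPM with Dox and 35.9 CPM without and a ratio of 0.55 (0.35 to 0.75). Actb, which encodes the actin found in the complex and throughout the cytoskeleton, stood at 0.52 (0.49 to 0.55), Bcl7b at 0.39 (0.17 to 0.61) and Bcl7a at -0.17 (-0.29 to -0.06). Bcl11b, a T cell transcription factor that also joins SWI/SNF, had 442 CPM with Dox and 431 CPM without, at 0.03 (-0.03 to 0.10).

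Of 9 measured CtBP partners, 0 were past 1.5-fold and the median was 0.04, with -0.01 under total counts and 0.14 over those with a mean of at least 50 CPM. Kdm1a, the histone demethylase of the CtBP complex, stood at 0.26 (0.16 to 0.36) and the repressor Zeb1 at 0.25 (0.15 to 0.36), while Rreb1 stood at -0.24 (-0.38 to -0.11) and Rcor3, with 81 counts with Dox and 62 counts without, at -0.51 (-1.01 to -0.02). Of 16 measured ISWI and other remodellers, 0 were past 1.5-fold and the median was 0.07. Bptf, the large subunit of the NURF remodeller, had 497 CPM with Dox and 361 CPM without, at 0.46 (0.40 to 0.53), and Chd7 stood at 0.20 (0.11 to 0.29). The small histone-fold subunits stood lower with Dox, with Pole3 at 42.2 CPM with Dox and 62.6 CPM without, at -0.57 (-0.74 to -0.39), and Chrac1 at -0.46 (-0.69 to -0.24). Pole3 passed 1.5-fold when the libraries were scaled by total counts.

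Of 7 measured deacetylases outside the complexes, 1 was lower by 1.5-fold or more and 0 were higher by as much, with a median of -0.09. The gene past 1.5-fold was Hdac6, a cytoplasmic deacetylase of tubulin, at 48.0 CPM with Dox and 74.2 CPM without and a ratio of -0.63 (-0.79 to -0.46). Hdac5 stood at 0.31 (0.14 to 0.49), Hdac8 at -0.20 (-0.46 to 0.06) and Hdac4 at -0.13 (-0.33 to 0.06).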

How the data were processed

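RNA was sequenced from sorted leukaemia cells. The design names 3 mice per group and 2 runs per RNA, but each group has 1 column of counts, which is called a library throughout. The authors deposited raw counts, whole numbers of reads per gene, together with gene lengths. Per the submitters' processing notes, CASAVA 1.8.2, featureCounts and mm10 were used. For the aligner, annotation, strand setting, treatment of shared reads and pooling of mice and runs, the sources used here give no information. The separate file of each library and the joint table differed in 0 values.

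Symbols and positions came from RefSeq (GRCm38.p6, the assembly behind mm10), which named 25275 of 27179 genes. Counts were scaled by TMM in edgeR 4.0.16 (R 4.3.3), with factors of 0.984 for Dox and 1.02 for untreated. Log2 ratios used a prior count of 2. The 95% intervals express counting error alone, as does the bound of 3 counts set for a gene at 0. The ratio and interval code was tested on simulated data. All else used scipy 1.17.1, pandas 2.3.3, numpy 2.4.6 and matplotlib 3.10.9 under Python 3.11.15.

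The members and all lists were chosen with earlier results of these data known. The text names all 38 members, Ikzf1 and, from each list of other subunits, the 4 genes with the largest ratio in size and at least 5 CPM. Cell type markers, Bcl11b among them, came from a separate list. The genes whose promoters are shown, and overlapping genes, were picked after values were seen. The CtBP pair was left out of the paralogue comparison because Ctbp2 had 0 counts. The alternatives were total counts or DESeq2 1.42.0 size factors as scaling, a prior of 0.5 or 5, a minimum of 1 or 20 CPM or none, thinned Dox counts, and removal of the trend with gene length. The limit of a mean of 50 CPM, and the alternatives for the interval counts, were added after seeing the data.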

Additional observations from a re-analysis of the deposited data

How the results depend on the processing

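Of the 210 member ratios recomputed under other scalings, prior counts, thinning and length correction, 209 stayed inside their counting interval, and the largest shift was 0.09. The exception was Chd4, at 0.22 with total counts. This outcome was largely fixed in advance and is no check of the ratios. DESeq2 size factors and total counts moved the median of all genes by only -0.004 and -0.05. The length trend moved a member by at most 0.015, and thinning drew from the same Dox reads. The narrowest member interval reached 0.04 to each side. Among the alternatives run, the counts of members past 1.5-fold and 2-fold changed only with no minimum on CPM, where 1 gene, Chd5, was past each in the lower direction. Under that setting the CtBP median was 0.0879, since Ctbp2 at 0 counts entered, 1 further SWI/SNF subunit (Bcl11a) was at least 1.5-fold higher, and 2 of the other deacetylases (Hdac6 and Hdac11) were at least 1.5-fold lower. With total counts, 7 member intervals lay below 0, and 1 of the ISWI and other remodellers (Pole3) was at least 1.5-fold lower, as was 1 with thinned Dox counts. The median over all members ran from -0.01 to 0.04, that of NuRD from 0.11 to 0.17, that of Sin3 from -0.07 to 0.09, that of SWI/SNF from -0.02 to 0.04 that of the CtBP partners from -0.01 to 0.14 and that of the further SWI/SNF subunits from -0.01 to 0.08. No paired analysis was possible because each group has 1 library. Low counts limit Chd5 and Smarcd3, and no setting can supply the missing spread between mice.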
